A study of Drosophila melanogaster with 60 samples.

Results

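The transcripts described here are those of 6 genes of fatty acid desaturation, elongation, esterification and uptake: Desat1, Baldspot, Agpat1, Agpat2, Agpat3 and Fatp1. They were chosen by name, all 6 were found by their FlyBase identifiers among the 13969 genes of the tables, and all 6 passed the filter on low counts. RNA came from abdominal fat body, a tissue that stores fat and does much of what liver does in mammals, of mated female Drosophila melanogaster about 3 days old. It was sampled through a day of 12 h of light and 12 h of dark after 5 days of entrainment, with 10 flies pooled in each library. All flies had the w1118 background, and all ate a diet with 150 g/L sucrose and 150 g/L yeast. Wild-type w1118 flies were kept at 18 °C or at 25 °C and sampled every 2 h, in 24 libraries each. Flies that also carried Clk-Jrk, backcrossed for 7 generations, were kept at 25 °C and sampled every 4 h, in 12 libraries. Clk-Jrk is a mutant allele of the circadian activator Clock, it was present in the whole animal, and as it changes the protein the level of Clk RNA does not check the label. Times are zeitgeber times (ZT), counted from lights on.

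Fatty acids made in or delivered to the fat body are activated to acyl-CoA before they are used. Elongases lengthen the acyl chain, desaturases put double bonds into it, and acyltransferases attach it to a glycerol backbone, which gives phosphatidic acid, the common precursor of membrane phospholipids and of stored triglyceride. Double bonds bend the chain and loosen its packing, and in many cold-blooded animals the unsaturation of membrane lipids rises as the temperature falls.

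Libraries held 4923858 to 46590109 estimated counts in total. The tables of replicate 1 at 18 °C gave identical values at ZT 2 and at ZT 20 for all 13969 genes. As the time of that library could not be told, both were left out, so that n = 22 at 18 °C, n = 24 in wild type at 25 °C and n = 12 in Clk-Jrk. The fat body genes apolpp, Lsd-1 and AkhR, from a list of 15, were present in every library. In each group 2 of the 15 had a median under 1 TPM, a level scaled for transcript length and library total. Tissue left on the epidermis also carries oenocytes, the abdominal cells that make cuticular hydrocarbons, and their P450 gene Cyp4g1 stood at 20890 to 54730 TPM. Summed RNA of 27 ovary markers spanned 60.2 to 6122 TPM at 18 °C, 401 to 17660 TPM in wild type at 25 °C and 159 to 3108 TPM in Clk-Jrk. None of these ovary markers was at 0 in every library of a group. Summed RNA of 23 gut markers also varied widely, at 34.7 to 6911, 17.6 to 15650 and 23.5 to 1286 TPM in the same order. The replicates of wild type stood apart: mitochondrially encoded RNA summed to 57070 to 117200 TPM in replicate 1 and 27000 to 40220 TPM in replicate 2, with no overlap at either temperature, and at 18 °C the summed fat body markers were at 14920 to 46440 TPM and 59260 to 112900 TPM. Of the 13 fat body markers tested, the yolk protein genes Yp1, Yp2 and Yp3 had the highest mean counts at 18 °C, so the fat body sums weigh their RNA most. The part of these replicate differences in the results was not tested, and wild-type differences are given within replicates as well. In pooled tissue, fewer cells of a type and less RNA per cell cannot be told apart.

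Desat1 was by far the most abundant of the 6 transcripts, and Agpat1 was the least abundant. Per transcript length, the order was Desat1, Agpat3, Fatp1, Baldspot, Agpat2 and Agpat1 in each of the 3 groups. Desat1 averaged 5783 ± 1067 TPM at 18 °C (SD, n = 22), 3281 ± 615 TPM in wild type at 25 °C (n = 24) and 2511 ± 400 TPM in Clk-Jrk (n = 12). By mean TPM it ranked 16th, 56th and 77th of all 13969 genes in these groups. Agpat1 averaged 1.91 ± 0.82, 2.24 ± 1.87 and 1.37 ± 0.38 TPM in the same order. Its highest value, 9.31 TPM, was in wild type at 25 °C, replicate 1, ZT 4, which was also the library with the most ovary marker RNA. The part of ovary RNA in that value was not tested.

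Between these extremes, Agpat3 averaged 338 ± 61.1 TPM at 18 °C, 203 ± 32.4 TPM in wild type at 25 °C and 235 ± 31.0 TPM in Clk-Jrk. Fatp1 averaged 239 ± 32.4, 150 ± 20.9 and 172 ± 10.6 TPM. The ranges of this pair overlapped in both wild-type groups, although Agpat3 was above Fatp1 in each of the 58 libraries kept. Baldspot averaged 80.4 ± 21.6, 42.0 ± 9.35 and 44.9 ± 9.66 TPM, and Agpat2 53.4 ± 31.1, 39.3 ± 13.1 and 37.7 ± 7.61 TPM. Their ranges overlapped in every group, and Baldspot was the higher in 19 of 22, 16 of 24 and 7 of 12 libraries. The order of Baldspot and Agpat2 was thus not settled beyond the spread between libraries, and all other neighbours but Agpat3 and Fatp1 had separate ranges.

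**Figure D1:**
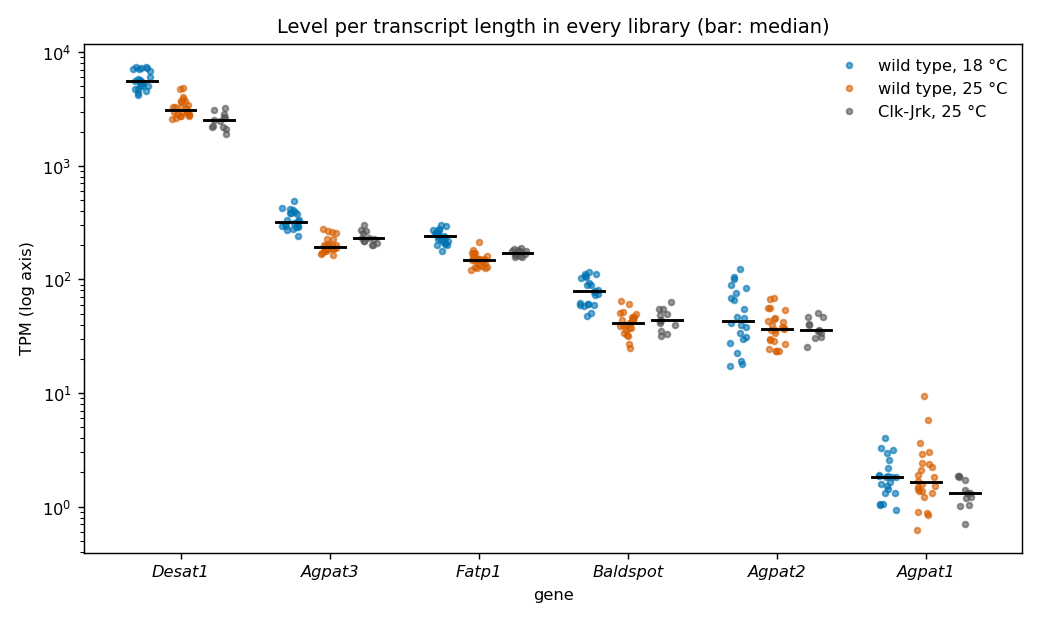
Level of the 6 transcripts in TPM on a log axis, with a point for each library and a bar at the median of each group. Desat1 lies at 1910 to 7376 TPM and Agpat1 at 0.626 to 9.31 TPM.

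The first comparison asked how the level at 18 °C differed from that at 25 °C in wild-type flies. Transcripts of the desaturase, the elongase, the acyltransferase Agpat3 and the transporter were higher in the cold, by 1.58-fold to 1.80-fold, and each was above its level at 25 °C at 12 of 12 times. No difference was called for the acyltransferases Agpat1 and Agpat2. Thus 4 of 6 were called higher and 0 lower. Among all 9289 genes tested, 48.5% were called in either direction, 23.3% higher and 25.3% lower, so a call alone was common in this contrast. The median difference over all genes was -0.02 on the log2 scale. A cold difference above 0 at all 12 times was found for 4 of the 6 and for 10% of all genes.

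Desat1 (FBgn0086687, chromosome 3R, 12439600 to 12447616, plus strand, with 5 annotated transcripts) encodes the stearoyl-CoA desaturase, which puts the first double bond into saturated acyl chains. Its level in log2 CPM (counts scaled to the TMM-adjusted library total) was 12.49 at the lowest, 13.17 at the median and 13.73 at the highest of the libraries at 18 °C, against 11.65, 12.38 and 12.98 in wild type at 25 °C. The ranges overlapped, but 16 of 22 libraries at 18 °C lay above the highest library at 25 °C and 22 of 22 above the median there, against 17 and 22 of 22 in TPM. The fitted difference was 0.79 ± 0.10 (SE), or 1.73-fold (edgeR quasi-likelihood adjusted p = 1.18e-06). Within replicate 1 the difference was above 0 at 10 of 10 times and averaged 0.74, and within replicate 2 it was above 0 at 12 of 12 times and averaged 0.76.

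Baldspot (FBgn0260960, chromosome 3L, 16648442 to 16661615, minus strand, 2 transcripts) encodes an elongase of the family that lengthens saturated and monounsaturated chains, and a small nuclear RNA gene lies within its span on the other strand. Its level was 6.91 at the lowest, 7.49 at the median and 7.94 at the highest at 18 °C, against 5.98, 6.64 and 7.02 log2 CPM at 25 °C. The ranges overlapped, with 19 of 22 libraries at 18 °C above the highest at 25 °C on this scale and 14 of 22 in TPM. The difference was 0.84 ± 0.07, or 1.80-fold (edgeR adjusted p = 1.40e-09), and it was above 0 at all times within either replicate, averaging 0.96 in replicate 1 and 0.70 in replicate 2.

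Agpat3 (FBgn0036623, chromosome 3L, 16381772 to 16385957, minus strand, 5 transcripts) is annotated as an acylglycerolphosphate acyltransferase, the kind of enzyme that adds the second acyl chain to give phosphatidic acid. Its log2 CPM was 8.10 at the lowest, 8.67 at the median and 9.05 at the highest at 18 °C, against 7.22, 8.02 and 8.35 at 25 °C. The ranges overlapped, with 18 of 22 libraries at 18 °C above the highest at 25 °C, and 19 of 22 in TPM. The difference was 0.71 ± 0.07, or 1.64-fold (edgeR adjusted p = 8.27e-08). It averaged 0.69 in replicate 1, above 0 at 10 of 10 times, and 0.64 in replicate 2, above 0 at 11 of 12, with -0.018 at ZT 16.

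The other 2 genes of this family did not follow Agpat3. Agpat2 (FBgn0026718, chromosome 2L, 8449691 to 8463994, minus strand, 4 transcripts) ranged from 4.50 over a median of 5.78 to 7.20 log2 CPM at 18 °C and from 4.84 over 5.59 to 6.66 at 25 °C. It was the most variable of the 6 at 18 °C, where its range reached beyond that at 25 °C at both ends. The cold difference was 0.18 ± 0.13 (edgeR adjusted p = 0.272), and the replicates differed: it averaged 0.65 in replicate 1, with 9 of 10 times above 0, and -0.20 in replicate 2, with 3 of 12. Without replicate 2 the difference was 0.66 ± 0.19 and passed. Agpat1 (FBgn0030421, chromosome X, 12765266 to 12772851, plus strand, 3 transcripts) ranged from 1.71 over 2.42 to 3.30 at 18 °C and from 1.40 over 2.33 to 3.77 at 25 °C, and its difference was 0.03 ± 0.17 (edgeR adjusted p = 0.926). Its span overlaps CG32647 on the opposite strand, and reads of the pair cannot be told apart if the libraries were not stranded, on which the labels are silent.

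Fatp1 (FBgn0267828, chromosome 2L, 10510672 to 10517218, minus strand, 4 transcripts) encodes a fatty acid transport protein, of a family that takes up long-chain fatty acids and couples them to CoA. Its level was 8.20 at the lowest, 8.92 at the median and 9.28 at the highest at 18 °C, against 7.41, 8.37 and 8.86 log2 CPM at 25 °C. The ranges overlapped, with 12 of 22 libraries at 18 °C above the highest at 25 °C on this scale and 17 of 22 in TPM. The difference was 0.66 ± 0.08, or 1.58-fold (edgeR adjusted p = 7.84e-07). It averaged 0.60 in replicate 1, above 0 at 9 of 10 times, with -0.046 at ZT 12, and 0.63 in replicate 2, above 0 at 12 of 12.

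RNA of other tissues differed between the temperatures as well. Of the 27 ovary markers 25 fell at 18 °C, with a median difference of -2.60, and 11 of 17 muscle markers and 7 of 11 haemocyte markers rose. Of 15 gut markers tested, 2 rose and 0 fell, with a median of -0.10. Of 13 fat body markers tested, 5 rose and 1 fell, apolpp at -0.84 ± 0.17, with a median of 0.09. Over all genes, 23.3% were called higher and 25.3% lower. Of 11 oenocyte markers 5 rose, 2 fell and 4 did not pass, with a median of 0.29, and their summed level was 34720 to 68780 TPM at 18 °C and 28290 to 65970 TPM at 25 °C. That list shares Fad2, eloF, CG9458, CG18609, FASN2 and FASN3 with the enzyme lists below. With the means of the ovary, gut and muscle markers as covariates, the 4 differences were smaller or alike and still passed in edgeR, at 0.51 ± 0.12 for Desat1, 0.82 ± 0.09 for Baldspot, 0.47 ± 0.09 for Agpat3 and 0.41 ± 0.10 for Fatp1. In that fit 10.5% of all genes were called. The part of haemocyte, oenocyte and fat body RNA was not tested.

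**Figure D2:**
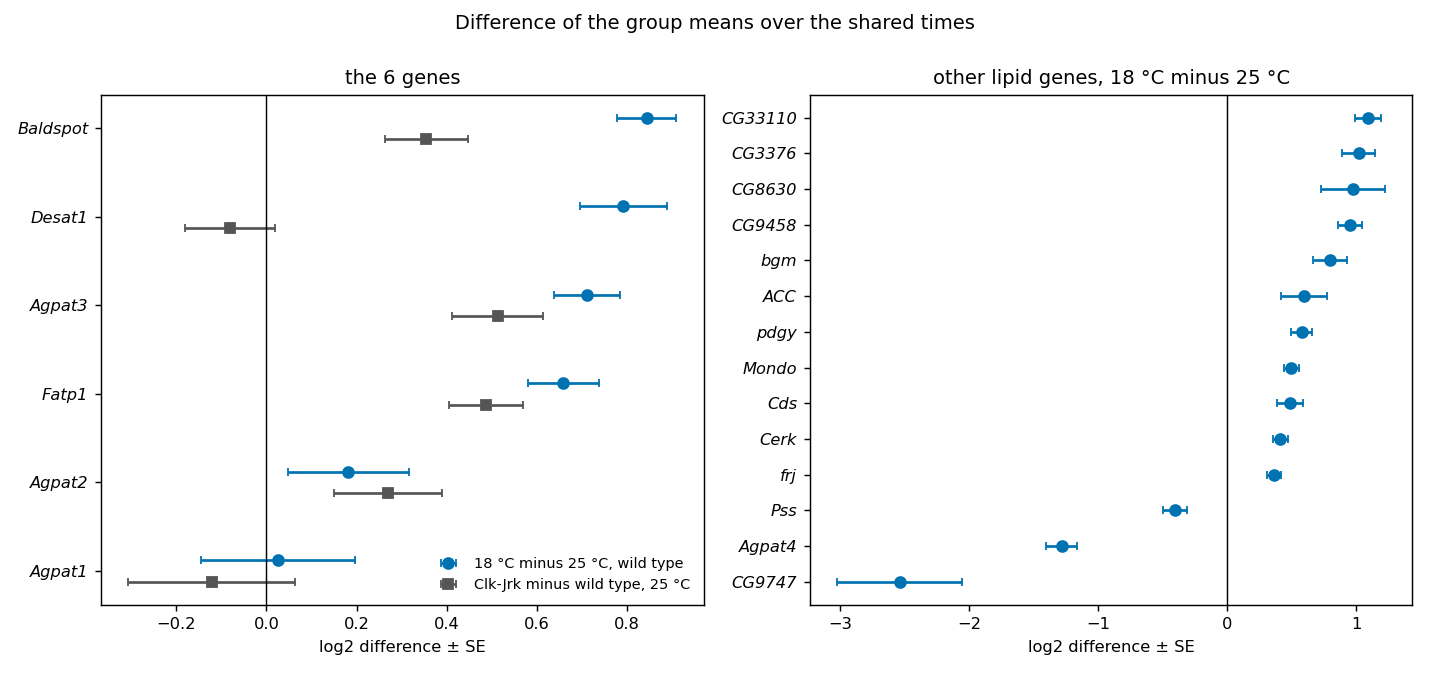
Differences of the group means over the shared times, in log2 ± SE from edgeR. Left, the 6 transcripts, with the cold difference in wild type as circles and the difference between Clk-Jrk and wild type at 25 °C as squares: Desat1 is at 0.79 for cold and -0.08 for genotype. Right, the cold difference of 14 other lipid genes, from 1.09 for CG33110 to -2.54 for CG9747.

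The cold response was then taken at each ZT. For the 4 transcripts that rose, the difference was above 0 at every time. For Desat1 it ran from 0.51 ± 0.33 at ZT 8 to 1.26 ± 0.38 at ZT 2, and for Baldspot from 0.31 ± 0.22 at ZT 10 to 1.26 ± 0.22 at ZT 24. For Agpat3 it ran from 0.42 ± 0.29 at ZT 20 to 1.30 ± 0.29 at ZT 2, and for Fatp1 from 0.26 ± 0.26 at ZT 12 to 1.25 ± 0.31 at ZT 2. Thus 3 of these 4 had the largest difference at ZT 2, where 18 °C had 1 library, of replicate 2, as it had at ZT 20. Within replicate 2 alone, the largest difference of these 3 was at ZT 14 instead. It was 1.30 for Desat1, 1.12 for Agpat3 and 1.33 for Fatp1, against 1.04, 1.01 and 1.03 at ZT 2.

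With at most 2 libraries per group and time, 4 of 72 differences of single times passed, beside 1.78% over all genes and times. All 4 were at ZT 4, where 21% of all genes were called and 6.76% were called higher. There Agpat3 was higher by 1.25 ± 0.24 and Baldspot by 1.01 ± 0.22 (edgeR adjusted p = 0.0150 for both), Fatp1 by 1.09 ± 0.27 (adjusted p = 0.0151) and Desat1 by 0.91 ± 0.33 (adjusted p = 0.0485). At ZT 2 no gene was called in edgeR, with 1923 at an unadjusted p under 0.05. In wild type at 25 °C, replicate 1 held 12250 TPM of ovary marker RNA at ZT 2 and 17660 TPM at ZT 4, against 4206 and 675 TPM in replicate 2. Without 6 libraries named in the methods, these 2 among them, 0 of 72 passed in edgeR, and 39 had an unadjusted p under 0.05. In replicate 2 alone the difference at ZT 4 was 0.93 for Agpat3, 0.63 for Baldspot, 0.63 for Fatp1 and 0.41 for Desat1, against 1.63, 1.29, 1.67 and 1.54 in replicate 1.

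Agpat1 and Agpat2 changed sign through the day. The cold difference of Agpat1 ran from -1.07 ± 0.56 at ZT 4 to 0.76 ± 0.57 at ZT 12. That of Agpat2 ran from -0.90 ± 0.57 at ZT 20 to 1.09 ± 0.45 at ZT 14, and none of these passed. A direct test of whether the cold difference varied with ZT called none of the 6 in edgeR, nor any of the 9289 genes, of which 175 had an unadjusted p under 0.05. The unadjusted p of the 6 ran from 0.226 for Agpat3 to 0.967 for Desat1.

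**Figure D3:**
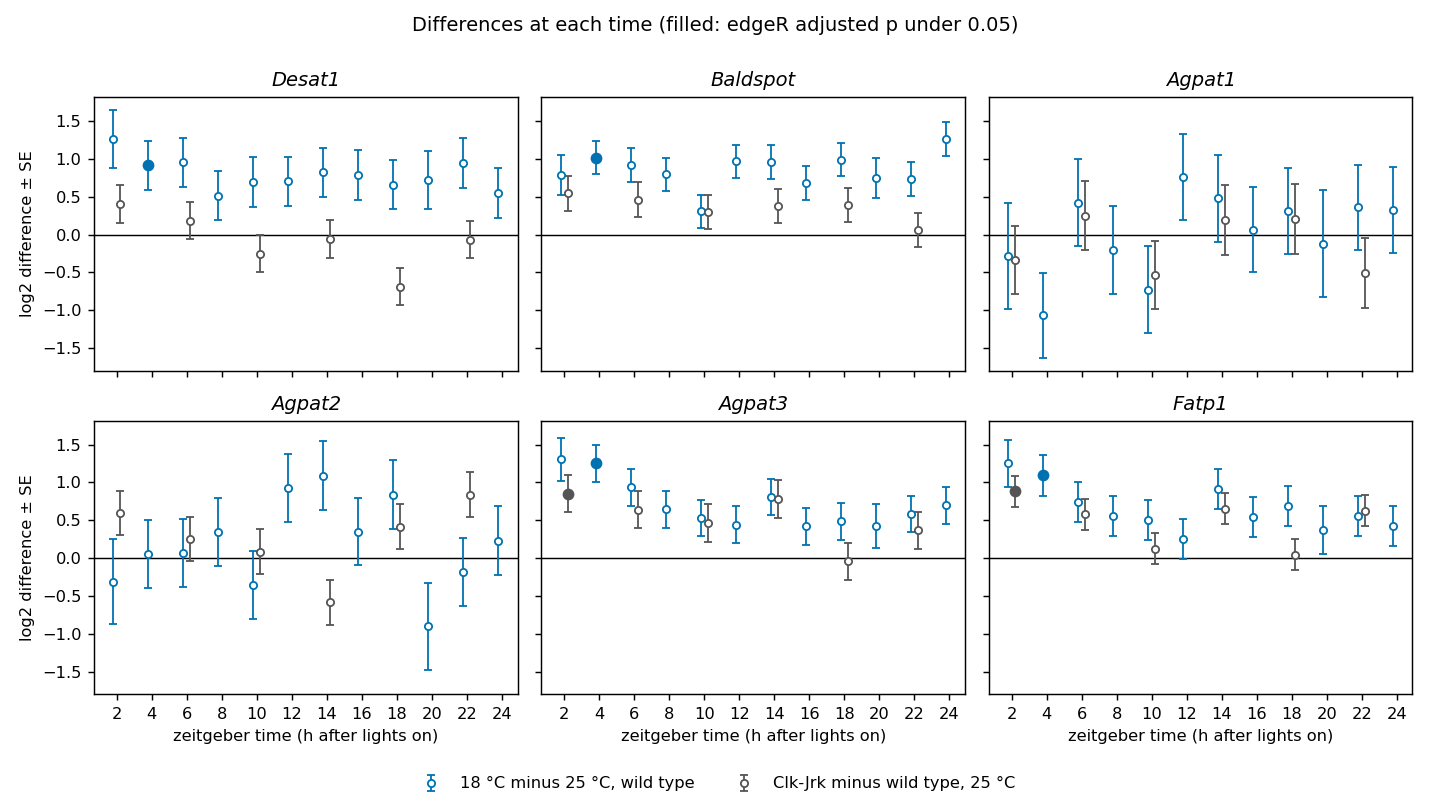
Differences at each zeitgeber time in log2 ± SE, for 18 °C against 25 °C in wild type and for Clk-Jrk against wild type at 25 °C, with filled points at an edgeR adjusted p under 0.05. The cold differences of Desat1, Baldspot, Agpat3 and Fatp1 are above 0 at 12 of 12 times.

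The next question was whether the transcripts followed the 24 h day. None of the 6 was called rhythmic in any group by edgeR, where 0.398% of genes passed in wild type at 25 °C, 1.94% in wild type at 18 °C and 0% in Clk-Jrk. At an unadjusted p under 0.05 there were 831, 1417 and 1432 genes, and among them were 2, 1 and 0 of the 6.

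At 25 °C these 2 were Baldspot and Desat1. Baldspot had a fitted amplitude of 0.24 ± 0.07 on the log2 scale and peaked near ZT 11.3 ± 1.06, with a peak 1.39 times its trough (edgeR p = 0.00969 before and 0.391 after adjustment). Its mean TPM was lowest at ZT 20, at 28.4, and highest at ZT 4, at 52.1. At ZT 4 the replicates differed, at 64.55 TPM in replicate 1 and 39.7 TPM in replicate 2. In log2 CPM, the scale of the fitted amplitude, the mean was lowest at ZT 24, at 6.06, and highest at ZT 16, at 6.83. Desat1 had an amplitude of 0.25 ± 0.09 and a peak at ZT 14.2 ± 1.38 h (edgeR p = 0.0353 before and 0.525 after adjustment), with replicate amplitudes of 0.37 and 0.14. At 18 °C the fitted amplitudes were 0.08 ± 0.09 for Baldspot and 0.14 ± 0.09 for Desat1.

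Agpat2 had the widest course of the 6, in the cold. At 18 °C its mean level was 57.7 TPM at ZT 4, 34.3 TPM at ZT 10 and 114 TPM at ZT 14. The 1 library at ZT 20, of replicate 2, stood at 19.3 TPM, a 5.93-fold span from ZT 14. Replicate 2 was below replicate 1 nearby, at 29.57 against 88.75 TPM at ZT 18 and 17.36 against 33.51 TPM at ZT 22. At ZT 14 the replicates were alike, at 123 and 105 TPM, and these were its highest values in any library. The fitted peak was at ZT 12.7 ± 1.08 h with an amplitude of 0.69 ± 0.20, 2.61-fold over the trough (edgeR p = 0.00564 before and 0.121 after adjustment). The amplitude was 0.41 ± 0.31 in replicate 1 and 0.97 ± 0.18 in replicate 2. At 25 °C the amplitude was 0.29 ± 0.13 with a peak at ZT 11.4, and in Clk-Jrk 0.26 ± 0.14 with a peak at ZT 1.81. Agpat2 was thus not called rhythmic at 18 °C, and the outcome varied with the processing: it passed in 7 of 27 alternatives, and the adjusted p ran from 0.0311 to 1 over them.

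Rhythms were also compared between groups. None of the 6 differed in rhythm between temperatures or genotypes in edgeR, where 0.118% and 0% of genes passed, with 1297 and 902 genes at an unadjusted p under 0.05. The smallest unadjusted p was 0.0159 for Agpat3 between temperatures, with fitted peaks at ZT 3.57 at 18 °C and ZT 16.1 at 25 °C, and 0.00855 for Agpat2 between genotypes. These differences did not survive adjustment (adjusted p = 0.3005 and 0.439). Flies came from incubators with inverse schedules, and which incubator held which flies is not stated, so incubator and time of day cannot be told apart.

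**Figure D4:**
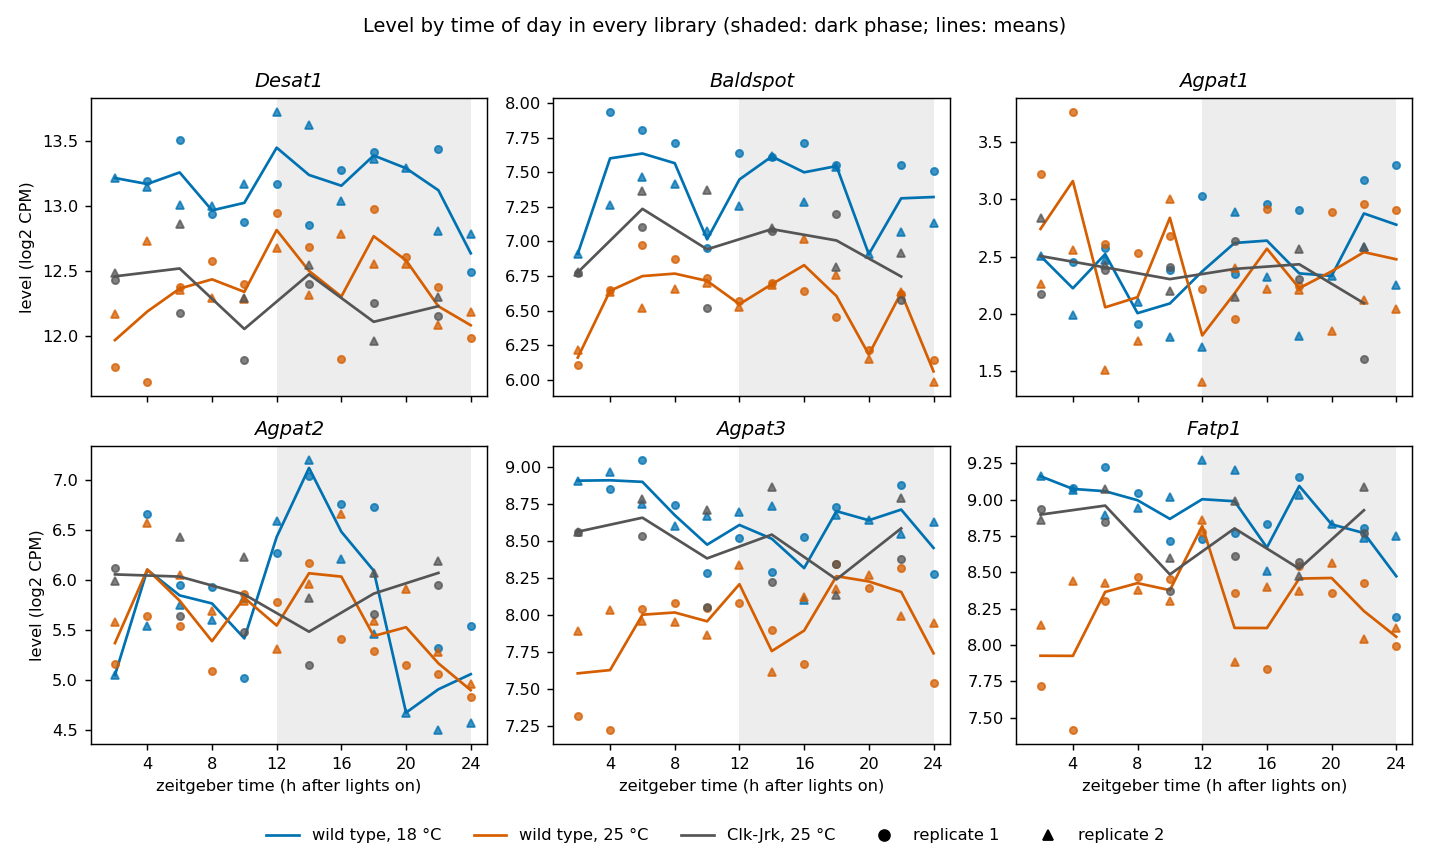
Level of each transcript in log2 CPM by zeitgeber time, with a point for each library, circles for replicate 1, triangles for replicate 2, lines through the means and the dark phase shaded. At 18 °C both replicates of Agpat2 are highest at ZT 14, at 7.04 and 7.20.

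The last comparison asked what differed in Clk-Jrk at 25 °C, against the 12 wild-type libraries of the same 6 times. Transcripts of Agpat3, Fatp1 and Baldspot were higher in the mutant and that of Desat1 was not called. So 3 of 6 were called higher and 0 lower, where 43.4% of all genes were called, 18.5% higher and 24.9% lower. The difference was above 0 at 6 of 6 times for Baldspot and Fatp1, as for 14.6% of all genes, and at 5 of 6 for Agpat3. Both this comparison and the cold comparison use wild type at 25 °C, so their values are given side by side only.

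Agpat3 ranged from 8.06 over a median of 8.54 to 8.86 log2 CPM in Clk-Jrk, against 7.32, 7.98 and 8.35 in wild type. The ranges overlapped, and 8 of 12 mutant libraries lay above the highest wild-type one. In TPM 1 of 12 did, with 12 of 12 above the wild-type median. The difference was 0.51 ± 0.10, or 1.43-fold (edgeR adjusted p = 0.00101), beside 0.71 for cold.

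Fatp1 ranged from 8.37 over 8.81 to 9.09 in Clk-Jrk, against 7.72, 8.33 and 8.54 in wild type, with 10 of 12 mutant libraries above the highest wild-type one, and 6 of 12 in TPM. Its difference was 0.49 ± 0.08, or 1.40-fold (edgeR adjusted p = 3.75e-04), beside 0.66 for cold. Baldspot ranged from 6.51 over 7.00 to 7.37 against 6.11, 6.66 and 6.98, with 6 of 12 above, and 1 of 12 in TPM, where 6 of 12 were above the wild-type median. Its difference was 0.35 ± 0.09, or 1.28-fold (edgeR adjusted p = 0.00634), beside 0.84 for cold.

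Desat1 ranged from 11.82 over 12.30 to 12.86 in Clk-Jrk and from 11.77 over 12.37 to 12.98 in wild type, where 0 of 12 mutant libraries lay outside the wild-type range. In TPM, 7 of 12 lay below the lowest wild-type library and 1 of 12 above the wild-type median. Its difference was -0.08 ± 0.10 (edgeR adjusted p = 0.537), beside 0.79 for cold. The difference was 0.27 ± 0.12 for Agpat2 (adjusted p = 0.0813) and -0.12 ± 0.19 for Agpat1 (adjusted p = 0.621). Of 36 differences at single times 2 passed, beside 5.03% over all genes and times: Agpat3 at 0.85 ± 0.25 and Fatp1 at 0.88 ± 0.20, both at ZT 2, where 11.5% of genes were called and 5.72% were called higher. The wild-type library of replicate 1 at ZT 2, which was high in ovary RNA, enters both, and without the 6 libraries 0 passed in edgeR, with 7 at an unadjusted p under 0.05.

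The mutant comparison rested more on its replicates and on the scale than the cold one. Without replicate 2, where 14.2% of all genes were called, none of the 3 passed: the differences were 0.34 ± 0.18 for Agpat3, 0.37 ± 0.17 for Fatp1 and 0.26 ± 0.15 for Baldspot (edgeR adjusted p = 0.214, 0.171 and 0.260, with 0 at an unadjusted p under 0.05). On log2(TPM + 1) in limma, the median of all genes was at -0.28, against -0.08 in the fit of counts. Relative to these medians, the difference on the TPM and count scales was 0.48 and 0.59 for Agpat3, 0.50 and 0.57 for Fatp1, 0.32 and 0.43 for Baldspot, and -0.09 and 0.00 for Desat1. In Clk-Jrk 11 of 27 ovary, 9 of 11 Malpighian tubule, 8 of 17 muscle and 5 of 11 neuron markers fell, and 4 of 11 oenocyte and 4 of 11 haemocyte markers rose. Of 13 fat body markers 4 rose and 2 fell. Of 15 gut markers tested, 0 rose and 1 fell, with a median of -2.73. These counts stand beside 18.5% of all genes called higher and 24.9% called lower. With the means of the ovary, gut and muscle markers as covariates, the differences of Agpat3, Fatp1 and Baldspot still passed in edgeR. In that fit 32.3% of all genes were called. The part of Malpighian tubule, neuron, oenocyte, haemocyte and fat body RNA was not tested.

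Across libraries of the same group, Desat1, Agpat3 and Fatp1 covaried. Agpat3 and Fatp1 had Pearson's r = 0.767 at 18 °C, 0.887 in wild type at 25 °C and 0.853 in Clk-Jrk (n = 22, 24 and 12; Spearman's rho = 0.793, 0.823 and 0.853). Permutation tests over the 45 pairs examined gave adjusted p = 2.25e-04, 1.50e-04 and 0.00427 for r and 9.00e-04, 2.25e-04 and 0.00514 for rho, from raw p of 2.00e-05, 1.00e-05 and 7.60e-04 for r and 8.00e-05, 1.00e-05 and 8.00e-04 for rho. Here and below, libraries of a group were shuffled across replicates and times, so the permutation p does not allow for either. Without the 2 libraries farthest from the median, r was 0.671, 0.793 and 0.723. For Desat1 and Fatp1, r was 0.758, 0.872 and 0.756 and rho 0.692, 0.817 and 0.769, with permutation p adjusted to 2.70e-04, 1.50e-04 and 0.0156 for r and to 0.00435, 2.25e-04 and 0.0285 for rho, and r without the 2 farthest libraries was 0.595, 0.800 and 0.554. For Desat1 and Agpat3, r was 0.559, 0.807 and 0.739 and rho 0.534, 0.767 and 0.748, with adjusted permutation p = 0.0247, 1.50e-04 and 0.0192 for r and 0.0518, 6.00e-04 and 0.0350 for rho, and r without the 2 farthest libraries was 0.520, 0.682 and 0.590. Within the replicates of each wild-type group r ran from 0.763 to 0.903 for Agpat3 and Fatp1 and from 0.693 to 0.938 for Desat1 and Fatp1. For Desat1 and Agpat3 it was 0.270 in replicate 2 at 18 °C and 0.617 to 0.859 in the other 3 sets.

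Over both replicates together, no such relation was found for Baldspot in wild type, where its r with Fatp1 was 0.138 at 18 °C and 0.168 at 25 °C (rho = 0.214 and 0.0626, adjusted permutation p = 0.704 and 0.616 for r and 0.522 and 0.896 for rho). Its r was 0.183 and 0.166 with Agpat3 and 0.194 and 0.264 with Desat1. The replicates differed at 18 °C. There its r with Fatp1 was 0.43 in replicate 1 and 0.196 in replicate 2 (rho = 0.697 and 0.231), and with Agpat3 0.603 and -0.0483. At 25 °C these were 0.267 and 0.0535 with Fatp1 and 0.31 and -0.0415 with Agpat3. At 18 °C Baldspot went with Agpat2 (r = 0.684, rho = 0.715, n = 22, adjusted permutation p = 0.00341 and 0.00225, r = 0.611 without the 2 farthest libraries), with r = 0.618 and 0.658 within the replicates. At 25 °C this pair had r = 0.476 and rho = 0.432 (n = 24, adjusted permutation p = 0.0593 and 0.132, r = 0.361 without the 2 farthest). Agpat1 went the other way in wild type at 25 °C, with r = -0.653 for Fatp1, -0.586 for Agpat3 and -0.537 for Desat1 (n = 24, adjusted permutation p = 0.00341, 0.0136 and 0.0247). By rank these did not pass, with rho = -0.488, -0.388 and -0.409 (adjusted permutation p = 0.0677, 0.184 and 0.153), and without the 2 farthest libraries r was -0.410, -0.357 and -0.286. Within replicate 1 r was -0.823, -0.66 and -0.85, and within replicate 2 it was -0.497, -0.492 and -0.104. Without those of the 6 libraries named in the methods that belong to this group, it was -0.446, -0.328 and -0.262 (n = 20). All of these values share the scaling of each library and its content of other tissues.

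**Figure D5:**
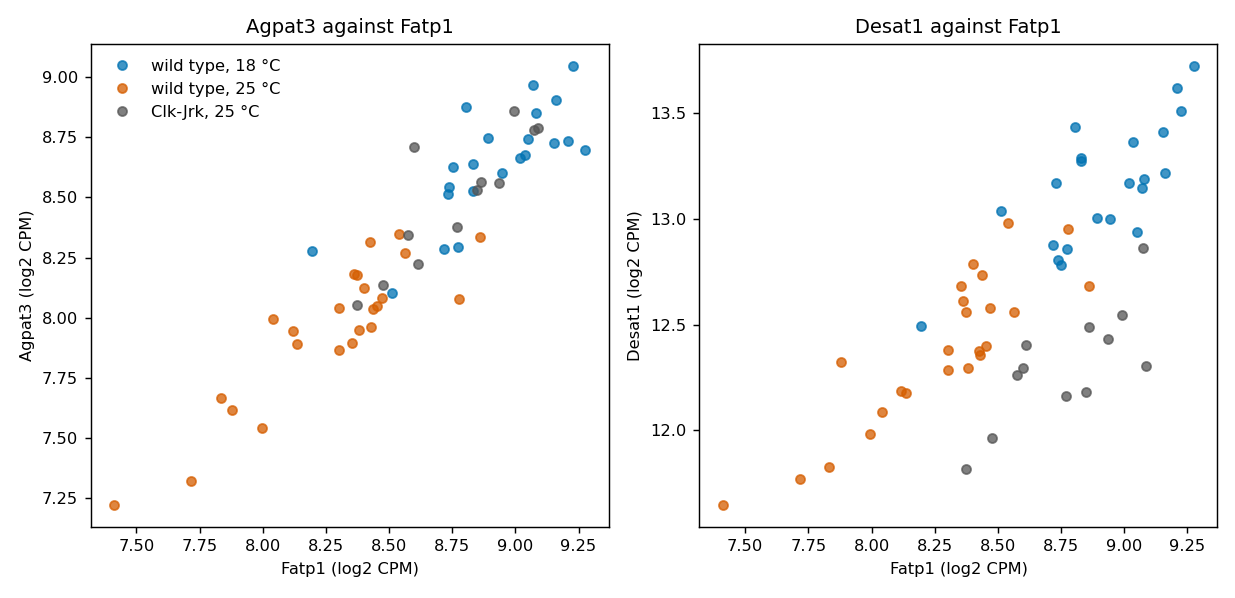
Agpat3 (left) and Desat1 (right) against Fatp1 in log2 CPM, with a point for each library. Both measures climb with Fatp1 in each group, and Clk-Jrk libraries reach 9.09 for Fatp1, 8.86 for Agpat3 and 12.86 for Desat1.

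The genes whose course was most like each transcript were sought by Pearson's r over the 58 libraries after the mean of each group was subtracted, among the 6636 genes that averaged 3 log2 CPM or more. For Fatp1 they were Cpr, the P450 reductase and one of the oenocyte markers (r = 0.948), Hacd1, a dehydratase of the elongation cycle (0.940), and Cat, catalase (0.935). For Agpat3 they were Pbgs, an enzyme of haem synthesis (0.914), vir-1 (0.906) and CG3625 (0.904). For Desat1 they were Pis, the phosphatidylinositol synthase (0.878), CG9044 (0.873) and CG3164 (0.872).

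The likeness was looser for the other transcripts. It was highest for Baldspot with CG9664 (0.745), alpha-Est10 (0.699) and subdued (0.678), for Agpat1 with Slmap (0.769), conu (0.746) and CG17528 (0.736), and for Agpat2 with mib1 (0.784), Ist1 (0.726) and CG4199 (0.719). That of Agpat2 with mib1 was 0.902 at 18 °C, 0.623 at 25 °C and 0.071 in Clk-Jrk. These are the highest of many values and are given as a description, with no test.

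The neighbours of the 6 in their pathways gave a mixed picture in the cold. The counts stand beside 23.3% of all genes called higher and 25.3% called lower. Of 7 other desaturases tested, 3 rose and 2 fell at 18 °C, with a median difference of 0.27. CG8630 rose 1.97-fold (0.98 ± 0.25, edgeR adjusted p = 0.00252), and CG9747 differed by -2.54 ± 0.49 (adjusted p = 2.18e-04), from a low level. Neither passed without replicate 1, at 0.18 ± 0.20 for CG8630 and -1.38 ± 0.69 for CG9747 (edgeR adjusted p = 0.508 and 0.136), nor with the marker covariates, at 0.48 ± 0.23 and -0.91 ± 0.65 (0.201 and 0.422). Desat2, a related desaturase gene 1742 bp from Desat1, stood at 0.421 to 2.52 TPM in wild-type libraries, and its value is uncertain if reads are shared between the pair. Of 15 other elongases, 8 rose and 1 fell, with a median of 0.30. CG33110 rose 2.13-fold (1.09 ± 0.10, adjusted p = 2.54e-08) and CG9458 1.94-fold (0.95 ± 0.09, adjusted p = 5.87e-08), at 12 of 12 times each.

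Of 8 other acyltransferases of phosphatidate and lysophospholipids, 3 rose and 1 fell, with a median of 0.18. The one that fell was Agpat4, which lies 201 bp from Agpat3 and belongs to the same family. Agpat4 stood at 17.8, 36.3 and 68.1 TPM as the lowest, median and highest library at 18 °C, and at 66.9, 86.9 and 124 TPM at 25 °C. The ranges barely touched, in the opposite order to those of Agpat3. Its difference was -1.28 ± 0.12, or 0.411-fold (edgeR adjusted p = 2.12e-08), below 0 at 12 of 12 times, and it passed in 24 of 24 alternatives, from -1.43 to -1.23. In Clk-Jrk it was 0.20 ± 0.12 (adjusted p = 0.195). The lysophospholipid acyltransferase gene frj rose 1.29-fold (0.36 ± 0.05, adjusted p = 1.69e-05), but not without replicate 2 or with the marker covariates, at 0.28 ± 0.10 and 0.23 ± 0.08 (edgeR adjusted p = 0.0536 and 0.0533).

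Of 11 other acyl-CoA synthetases and fatty acid transporters, 4 rose and 2 fell. The acyl-CoA synthetase gene pdgy rose 1.49-fold (0.58 ± 0.08, edgeR adjusted p = 7.19e-06), and bgm, for very long chains, rose 1.74-fold (0.80 ± 0.13, adjusted p = 4.78e-05). Of 12 enzymes of phospholipid head groups 5 rose and 4 fell. Among them Cds, which makes CDP-diacylglycerol from phosphatidic acid, rose 1.40-fold (0.49 ± 0.10, adjusted p = 3.97e-04), and Pss, the phosphatidylserine synthase, differed by -0.40 ± 0.09 (adjusted p = 0.00142). With the marker covariates bgm was at 0.41 ± 0.17 and Pss at -0.32 ± 0.13, and neither passed (edgeR adjusted p = 0.132 and 0.134).

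Of 15 sphingolipid enzymes 5 rose and 3 fell. Those with the smallest adjusted p were the sphingomyelinase gene CG3376, up 2.03-fold (1.02 ± 0.13, edgeR adjusted p = 1.51e-06), and the ceramide kinase gene Cerk, up 1.33-fold (0.41 ± 0.06, adjusted p = 9.25e-06). Of 11 genes of fatty acid synthesis and its regulator SREBP 3 rose and 0 fell. Mondo, a sugar-responsive transcription factor, rose 1.41-fold (0.50 ± 0.06, adjusted p = 4.95e-07), and ACC, the acetyl-CoA carboxylase, rose 1.52-fold (0.60 ± 0.18, adjusted p = 0.00786). With the marker covariates ACC was at 0.098 ± 0.23 and no longer passed (edgeR adjusted p = 0.867), while it ran from 0.36 to 0.80 and passed in the other 23 alternatives. Medians of the last 4 lists were 0.03, 0.07, 0.15 and 0.10, beside -0.02 for all genes, of which 23.3% were called higher and 25.3% lower.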

How the data were processed

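Per the labels' protocols, gut, ovaries and Malpighian tubules were dissected away and poly(A) RNA of the fat tissue was sequenced. The authors used kallisto 0.46.2, per the submitters' processing notes, and deposited estimated counts and TPM per gene. The transcriptome is not stated, so positions come from the BDGP6.54 annotation, where 13950 of 13969 identifiers matched a symbol.

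Estimated counts were rounded (80.5% of nonzero values lay within 0.001 of a whole number), filtered with filterByExpr, scaled by TMM and tested in edgeR 4.0.16 under R 4.3.3 (quasi-likelihood, Benjamini-Hochberg over all genes, adjusted p under 0.05). Levels were contrasts of group means averaged over shared times, and rhythm was a cosine and sine of 24 h. Log2 CPM used a prior count of 2. Replicates were independent samplings per the series' design text.

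The 6 genes, 7 pathway lists and 8 marker lists were chosen with earlier results of these data known. The text names up to 2 further genes per pathway list by smallest adjusted p for cold, and the 3 genes most like each transcript. Desat2 and the marker genes were named after their values were seen. The alternatives were RLE scaling, DESeq2 1.42.0, unfiltered genes, limma 3.58.1 on log2(TPM + 1), a replicate block, marker covariates, single replicates or times left out, the identical pair kept, 12 h terms, time as a factor, a day-to-night step, and a run without 6 libraries high in RNA of other tissues or low in mitochondrial RNA. Those 6 were ZT 2, 4, 10 and 14 of replicate 1 at 25 °C, ZT 24 of replicate 1 at 18 °C and ZT 22 of replicate 2 of Clk-Jrk. They were set by name and not by a cutoff, and some libraries as high were kept. In wild type at 25 °C, replicate 1, ovary marker RNA was at 14070 TPM at ZT 24, which was kept, and 12250 TPM at ZT 2. Gut marker RNA was at 10400 TPM at ZT 6 of that replicate, also kept. The fits were tested on simulated data, and tables and plots were made in Python 3.11.15.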

Additional observations from a re-analysis of the deposited data

How the results depend on the processing

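The cold differences of Desat1, Baldspot, Agpat3 and Fatp1 passed in 24 of 24 alternatives each, with ranges of 0.51 to 0.82, 0.72 to 0.96, 0.47 to 0.74 and 0.41 to 0.70. The cold difference of Agpat2 passed at 0.66 without replicate 2 and was -0.20 without replicate 1. The 4 calls at single times became 14 in DESeq2, 8 with a replicate block, 8 with the identical pair kept or taken as ZT 2, and 0 without the 6 libraries. The 0 rhythmic members at 18 °C became 1, Agpat2, in DESeq2, with a replicate block, with marker covariates and with a 12 h harmonic, where 6.42%, 6.04%, 7.54% and 0.592% of all genes were called against 1.94%, and ran from 0 to 1 with a replicate or a ZT left out (1 without replicate 1, ZT 4 or ZT 10).

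The 3 calls in Clk-Jrk ran from 0 to 3 with a replicate or a ZT left out, with the 0 at replicate 2. There Agpat3 ran from 0.34 to 0.71, Fatp1 from 0.37 to 0.64, Baldspot from 0.26 to 0.46 and Agpat2 from 0.15 to 0.45. On log2(TPM + 1) Desat1 passed at -0.38, and Baldspot at 0.039 and Agpat3 at 0.20 no longer passed. Without the 6 libraries Baldspot at 0.34 no longer passed. Agpat2 passed at 0.30 in DESeq2, 0.26 with a replicate block and 0.53 with marker covariates. The 2 calls at single times became 6 in DESeq2 and 0 without the 6 libraries. No called difference changed sign, and the cause of each move was not tested. DESeq2 gave no adjusted p for the rhythm of Agpat1 in Clk-Jrk or for its differences in rhythm. Deviations of same-numbered libraries had correlations from -0.19 to 0.55 between the wild-type groups, over 0.1 in 8 of 10 pairs, and from -0.59 to 0.21 between wild type at 25 °C and Clk-Jrk.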
